A study of Mus musculus with 6 samples.

Results

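Plasma cell genes are described here as the 9 members Jchain, Mzb1, Sdc1, Tnfrsf17, Prdm1, Derl3, Xbp1, Irf4 and Pou2af1, taken by symbol from a table of 54532 genes. The tested libraries came from bone of mice lacking the miR-29cb2 cluster (MIR29cb2 knockout), home of miR-29b-2 and miR-29c, small RNAs that repress mRNAs. They were set against libraries from wild-type (WT) bone. There were 3 libraries in each of the 2 groups, all from female C57BL/6J mice aged 16 weeks. Levels were given as FPKM (fragments per kilobase of a gene's exons, scaled to the size of the library), so levels of different genes are compared per length. The labels give neither the deleted interval nor the bone taken, and they do not say whether marrow was removed or whether every library is a separate animal. The tests therefore rest on how far these libraries vary, some of which may be technical.

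Plasma cells are the antibody-secreting end stage of the B cell lineage, and bone marrow is where long-lived ones persist. Their programme is built by transcription factors: Irf4 and Prdm1 (Blimp-1) shut down B cell identity and start antibody secretion, Xbp1 enlarges the endoplasmic reticulum (ER), and Pou2af1 (OBF-1) is a coactivator of octamer-binding factors at immunoglobulin genes. The cells are recognised by the surface proteoglycan Sdc1 (syndecan-1, CD138), and they carry the survival receptor Tnfrsf17 (BCMA). Jchain joins IgA and IgM into polymers, Mzb1 helps antibody chains fold in the ER, and Derl3 takes part in removing misfolded ER proteins. All 9 genes are used by other cells or other stages to some degree, so each level in whole bone is a sum over cell types. In bulk RNA, fewer cells of a type and less RNA per cell cannot be told apart.

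Of the 9 members, Sdc1 fell in knockout bone, to 0.43 times its WT mean. No member rose past the threshold, although all 3 knockout libraries held more Xbp1 than any WT library. A gene was called when its adjusted p in limma, fitted on log2(FPKM + 1) over all 13619 genes with a mean of at least 1 FPKM, was under 0.05. All 9 members passed that filter. The call rate over all tested genes was 5.16% in either direction, 3.82% lower and 1.34% higher, against 1 member lower and 0 higher. Without an adjustment, 6 members had a p under 0.05, 5 lower and 1 higher. The share of all tested genes at that unadjusted p was not counted. Counts at an unadjusted p, here and for the lists below, therefore have no base rate beside them. On recovered reads, limma's voom called 1 lower and 1 higher of 8 members, against 622 lower and 197 higher of 12950 genes. The changes of 7 members were negative and those of 2 positive, with a median of -0.46 on the log2 scale, against 0.0598 over all tested genes. The groups did not overlap in 5 members lower and 1 higher, while 28.4% of all tested genes did not overlap, 13.7% lower and 14.7% higher.

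**Figure D1:**
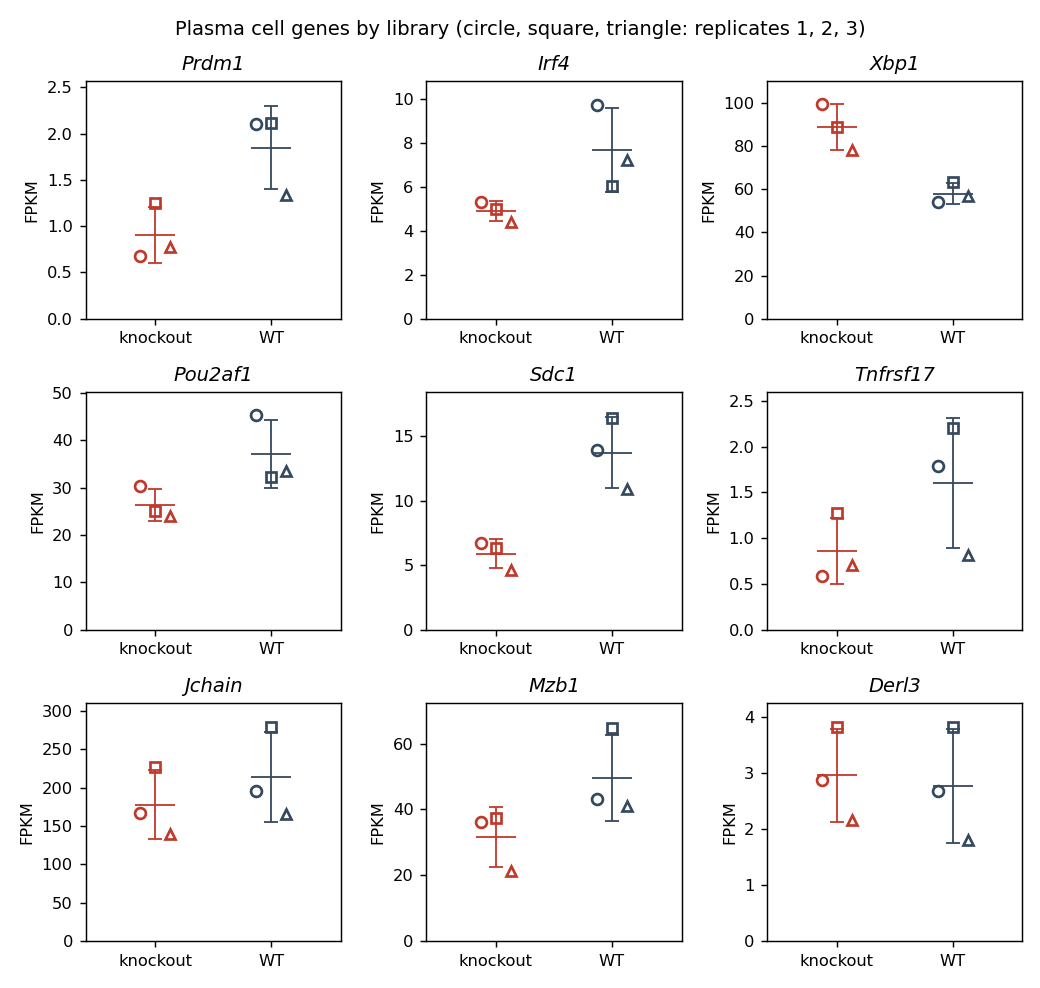
FPKM of the 9 plasma cell genes in each library, with knockout libraries left of WT libraries, the group mean as a long bar and 1 SD as a whisker. Sdc1 lay at 4.60 to 6.75 FPKM in knockout and 10.9 to 16.4 in WT libraries, and Xbp1 at 78.1 to 99.7 in knockout and 53.9 to 63.5 in WT libraries.

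**Figure D2:**
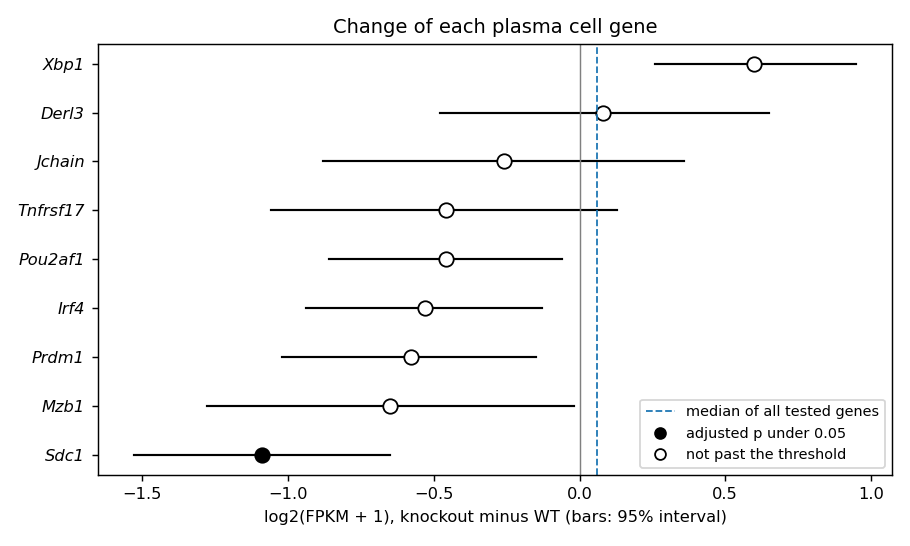
Change of each plasma cell gene as knockout minus WT on the log2(FPKM + 1) scale with its 95% interval from limma; filled points had an adjusted p under 0.05, and the dashed line is the median of all tested genes, 0.0598. Sdc1 is the filled point, at -1.09, and Xbp1 lay highest, at 0.60.

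The libraries held 16727100 to 20118000 recovered reads. Knockout replicate 1 and WT replicate 2 stood apart from the rest, with FPKM totals of 487102 and 489576, against 355787 to 404994 in the other libraries. In these 2 libraries, longer genes lay lower relative to the group mean (Spearman's rho with exon length, across genes, of -0.445 in knockout replicate 1 and -0.421 in WT replicate 2, against 0.184 to 0.413 in the others). The host transcript of the cluster, A330023F24Rik, had 2.51, 3.25 and 4.08 FPKM in knockout libraries, against 0.197, 0.153 and 0.136 in WT libraries. It was higher in the knockout (ratio of means 20.2, log2 change 1.87 on the log2(FPKM + 1) scale, limma adjusted p = 0.00676). No lost transcript was therefore there to check the labels by. Over all genes 520 were lower and 183 higher. With each library's trend with exon length removed these counts were 738 and 485, and with libraries weighted by their quality in limma 1803 and 1551. The osteoblast genes of the tissue label were present, with Col1a1, the main collagen of bone, at 342, 148 and 176 FPKM in knockout, against 565, 448 and 394 in WT libraries.

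Levels of the members spanned a wide range. The order of group means in FPKM was the same in knockout and WT bone: Jchain, Xbp1, Mzb1, Pou2af1, Sdc1, Irf4, Derl3, Prdm1 and Tnfrsf17. The highest mean was 208 times the lowest in knockout and 134 times in WT bone. Neighbours in this order whose libraries overlapped were Mzb1 and Pou2af1, Sdc1 and Irf4, and Prdm1 and Tnfrsf17 in knockout bone. In WT bone they were Xbp1 and Mzb1, Mzb1 and Pou2af1, Derl3 and Prdm1, and Prdm1 and Tnfrsf17.

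Among the transcription factors, Prdm1, Irf4 and Pou2af1 were lower in all knockout libraries than in any WT library, and none of them passed the threshold. Prdm1 (ENSMUSG00000038151, chr10:44437177-44528501, minus strand, mm10) is the repressor that commits B cells to secretion. It had 0.681, 1.25 and 0.777 FPKM in knockout libraries, against 2.10, 2.12 and 1.34 FPKM in WT libraries. The highest knockout library, replicate 2, lay just under the lowest WT library, replicate 3. The group means were 0.901 ± 0.302 FPKM in knockout and 1.85 ± 0.444 FPKM in WT bone (SD, n = 3 each), from 259 and 607 reads. Prdm1 had a log2 change of -0.58 (SE 0.19, 95% interval -1.02 to -0.15, limma adjusted p = 0.127). The log2(FPKM + 1) scale understates changes of such low genes. The ratio of its means was 0.486, and voom on reads gave a log2 change of -1.06.

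Prdm1 was the 1 member of 9 whose annotated 3′ UTRs held TGGTGCT, the 7-base complement of the miR-29 seed, against 18.8% of 11685 tested genes with an annotated 3′ UTR. MicroRNAs pair through their seed with such sites and lower the level or translation of the mRNA. The 3 mature miR-29 sequences, credited to RefSeq (GRCm38.p6), share their seed, bases 2 to 8, which is in capitals; miR-29b and miR-29c are those of the deleted cluster, while a sister locus also encodes miR-29b and miR-29a:
miR-29b-3p: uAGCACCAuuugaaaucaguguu
miR-29c-3p: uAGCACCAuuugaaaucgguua
miR-29a-3p: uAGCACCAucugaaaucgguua
The Prdm1 match lies at chr10:44438034-44438062 on the minus strand (mm10, GENCODE M21), with the 7 bases in capitals:
Prdm1 3′ UTR: cgctatgacttTGGTGCTtgggcaccacc
The mature microRNAs were not measured in these libraries. The longest annotated 3′ UTR had a median of 989 bases over the members and 1296 over the tested genes. A match is a description of these letters and does not show a site in use.

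Irf4 (ENSMUSG00000021356, chr13:30749226-30766976, plus strand) is needed both to form and to keep plasma cells. It had 5.30, 5.01 and 4.41 FPKM in knockout libraries, against 9.76, 6.04 and 7.22 FPKM in WT libraries. The knockout libraries were close together and all below the WT ones, which spread more widely. The mean was 4.91 ± 0.456 FPKM in knockout and 7.68 ± 1.90 FPKM in WT bone (SD, n = 3 each), with a log2 change of -0.53 (SE 0.17, limma adjusted p = 0.131). Pou2af1 (ENSMUSG00000032053, chr9:51213708-51240080, plus strand), which B cells express as well as plasma cells, had 30.3, 25.0 and 24 FPKM in knockout libraries, against 45.3, 32.3 and 33.5 FPKM in WT libraries. The highest knockout library, replicate 1, lay just under the lowest WT library, replicate 2. The mean was 26.4 ± 3.39 FPKM in knockout and 37.0 ± 7.17 FPKM in WT bone (SD, n = 3 each), and the log2 change was -0.46 (SE 0.17, limma adjusted p = 0.18).

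Xbp1 (ENSMUSG00000020484, chr11:5520659-5525893, plus strand) ran the other way. It encodes the factor that the stress sensor IRE1 activates by splicing its mRNA, and FPKM per gene do not separate the spliced form. Xbp1 had 99.7, 89.0 and 78.1 FPKM in knockout libraries, against 53.9, 63.5 and 56.7 FPKM in WT libraries. The groups did not overlap, and the lowest knockout library, replicate 3, was well above the highest WT library, replicate 2. The mean was 88.9 ± 10.8 FPKM in knockout and 58.0 ± 4.93 FPKM in WT bone (SD, n = 3 each), a ratio of 1.53, from 14794 and 10954 reads. The log2 change was 0.60 (SE 0.14, 95% interval 0.26 to 0.95, limma adjusted p = 0.0632). It passed with quantile normalization (adjusted p = 0.0307), with abundant transcripts removed (0.0328), with library weights (0.0039), with voom on reads (0.0485) and with the length trend removed (0.0187). Xbp1 did not pass when any 1 library was left out (limma adjusted p of 0.0811 to 0.211). Nor did it pass without both libraries that stood apart (0.0807) or with the replicate number as a block (0.244).

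A list of 36 genes covered protein folding and export in the ER and the response to ER stress, and all were tested. The list was chosen with earlier results of these data known, so the shares over all genes beside it are no test. Of the 36 genes, 7 rose in knockout bone and 0 fell, where 1.34% of all tested genes rose and 3.82% fell. The others did not pass. The median log2 change was 0.45, against 0.0598 over all tested genes, and 3 of the 36 changes were negative, against 40.9% of those of all tested genes. At an unadjusted p under 0.05, 17 were higher and 0 lower. With voom on reads, 8 were called higher and 0 lower of 33, against 197 higher and 622 lower of 12950 genes. The ER chaperone partner Sdf2l1 had 136, 95.9 and 109 FPKM in knockout libraries, against 31.9, 36.3 and 34.4 FPKM in WT libraries, the groups standing far apart (log2 change 1.69, limma adjusted p = 0.00712). The chaperones Hyou1 (1.01), Hspa5 (BiP, 0.90) and Calr (calreticulin, 0.94), the disulphide isomerase Pdia6 (1.02) and Edem1 (0.57), which directs misfolded proteins to degradation, also rose (limma adjusted p of 0.010 to 0.0414). Hsp90b1, the chaperone that Mzb1 assists and named after its values were seen, rose as well (log2 change 0.74, limma adjusted p = 0.0457). The 3 negative changes were those of Dnajb9 (-0.02), Herpud1 (-0.15) and Ddit3 (-0.15), named after their values were seen. The number that rose was 2 without knockout replicate 1, 2 or 3 or WT replicate 3, 1 without WT replicate 1 and 5 without WT replicate 2 or without both libraries that stood apart.

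These ER genes serve all secreting cells, and other cell types moved beside them. Markers of neutrophil precursors, marrow cells that load granules with enzymes made in the ER, rose in 6 of 9 members (median log2 change 1.18), where 1.34% of all tested genes rose. Their summed level was 4610 to 5980 FPKM in knockout and 1780 to 2480 FPKM in WT libraries. Ctsg, a granule protease, had 637, 486 and 482 FPKM in knockout libraries, against 159, 177 and 178 FPKM in WT libraries (log2 change 1.63, limma adjusted p = 0.0104). None of the 9 markers was at 0 in any library. The number that rose was 2, 1 and 3 without knockout replicates 1, 2 and 3, and 0, 4 and 3 without WT replicates 1, 2 and 3. Their part in the levels of Xbp1 and the ER genes was not tested.

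**Figure D3:**
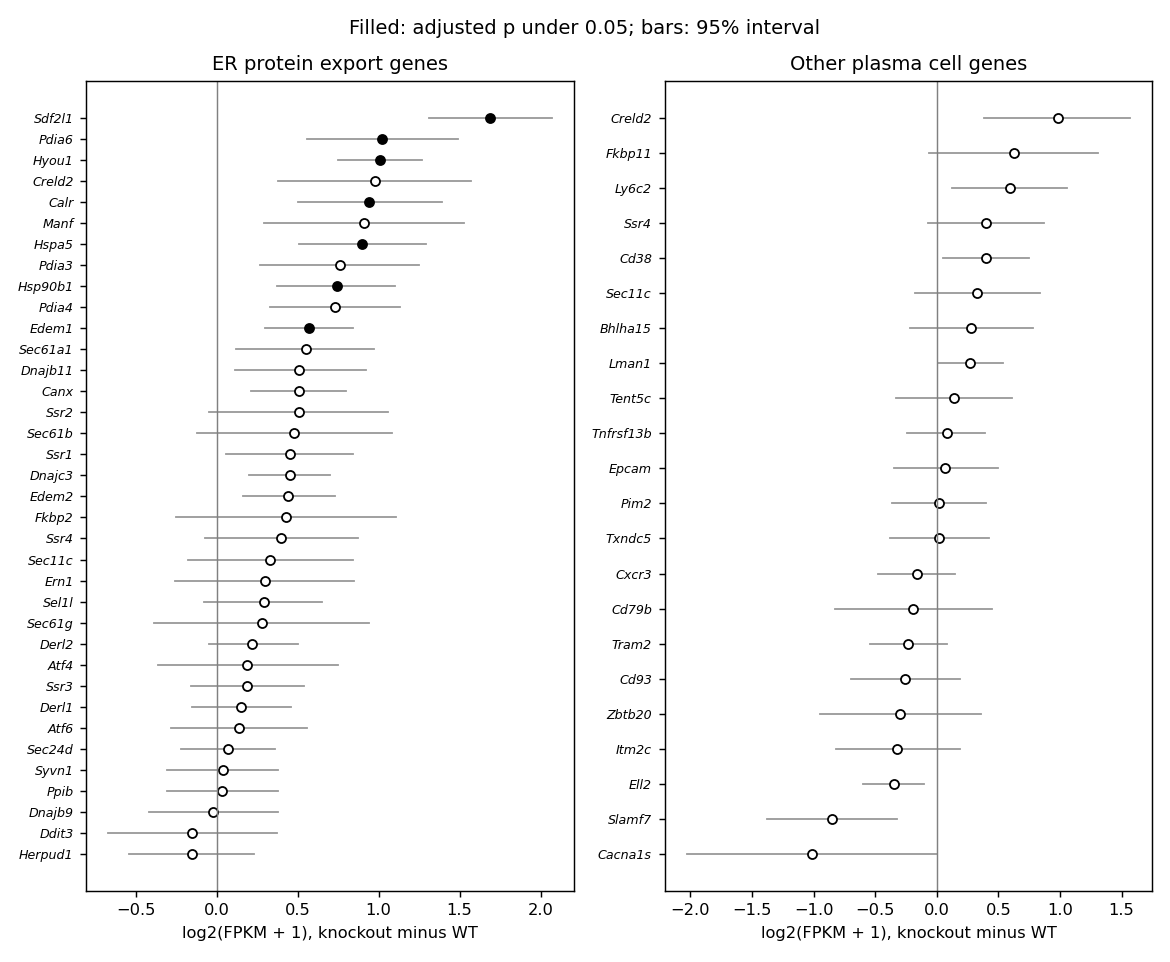
Change as knockout minus WT on the log2(FPKM + 1) scale, with 95% intervals, for the tested members of the ER list on the left and of a list of other plasma cell genes on the right; filled points had a limma adjusted p under 0.05. In the ER list 33 of 36 points lie right of 0 and 7 are filled, and in the other list the points lie on both sides with none filled.

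The surface proteins both had lower means in knockout bone. Sdc1 (ENSMUSG00000020592, chr12:8771323-8793715, plus strand) had 6.75, 6.35 and 4.60 FPKM in knockout libraries, against 13.9, 16.4 and 10.9 FPKM in WT libraries. The groups were clearly apart, with replicate 3 the lowest library in both. The mean was 5.90 ± 1.14 FPKM in knockout and 13.7 ± 2.73 FPKM in WT bone (SD, n = 3 each), from 1150 and 3053 reads. The log2 change was -1.09 (SE 0.19, 95% interval -1.53 to -0.65), and Sdc1 was the member past the threshold (limma adjusted p = 0.0287). The call was lost without any 1 library other than WT replicate 3: the adjusted p was 0.0603 without knockout replicate 1, 0.0946 without knockout replicate 2, 0.0625 without knockout replicate 3, 0.101 without WT replicate 1 and 0.0587 without WT replicate 2. It was also lost without both libraries that stood apart (log2 change -1.05, adjusted p = 0.0649) and with no filter on low values (0.0737).

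Sdc1 is made by epithelial and some connective tissue cells as well as by plasma cells, and markers of several non-blood cell types were lower in the same libraries. Over all tested genes, 3.82% fell and 1.34% rose. Fibroblast markers fell in 6 of 7 tested members, with a summed level of 36.4 to 55.9 FPKM in knockout and 147 to 206 FPKM in WT libraries. Chondrocyte markers fell in 6 of 7, with 7.34 to 41.1 FPKM in knockout and 248 to 356 FPKM in WT libraries, and 1 of them, Matn3, was at 0 in knockout replicate 3. Osteoblast markers fell in 4 of 9, with 588 to 1240 FPKM in knockout and 1420 to 2670 FPKM in WT libraries. Endothelial markers fell in 2 of 6, with 48.0 to 51.7 FPKM in knockout and 70.5 to 74.5 FPKM in WT libraries, and skeletal muscle markers in 2 of 7, with 1430 to 2270 FPKM in knockout and 2860 to 5330 FPKM in WT libraries. These counts moved when 1 library was left out: fibroblast markers that fell numbered 3 without knockout replicate 2 or WT replicate 1, chondrocyte markers 3 without WT replicate 1, and osteoblast markers 0 or 1 without any library other than WT replicate 3. Endothelial and muscle markers that fell numbered 1 without knockout replicate 3 and 0 without any other library. No marker of these lists other than Matn3 was at 0 in any library. The medians of these lists were -1.69 for fibroblasts, -3.27 for chondrocytes, -1.16 for osteoblasts, -0.50 for endothelium and -1.22 for skeletal muscle. Of the epithelial markers, the keratins Krt5 and Krt14 were at 0 in all 6 libraries and Krt8 at 0 in 2 knockout libraries. The summed epithelial level was 3.11 to 6.08 FPKM in knockout and 2.98 to 4.45 FPKM in WT libraries. The part of these cell types in the level of Sdc1 was not tested.

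The genes whose profile over the 6 libraries lay closest to that of Sdc1, by root mean square distance of centred log2(FPKM + 1) values, were Fibin (distance 0.0579), Srpx2 (0.0604) and Mrc2 (0.0740). Their log2 changes were -1.07 for Fibin, -1.11 for Srpx2 and -1.03 for Mrc2. These changes follow from choosing genes by their likeness to Sdc1 over the same libraries and are given with no test. The nearest to Xbp1 were Msantd3 (distance 0.0413), Mogs (0.0416), which trims sugars on new ER proteins, and Eif1a (0.0457). The nearest to Jchain were Hrct1 (0.0729), the noncoding RNA Bvht (0.105) and Tha1 (0.108). None of these 9 neighbours is a plasma cell gene of the lists used here. Immunoglobulin and T cell receptor genes, pseudogenes and predicted genes were left out of that ranking. No antibody gene could therefore be a neighbour.

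Tnfrsf17 (ENSMUSG00000022496, chr16:11313812-11320074, plus strand) is the receptor through which the ligands APRIL and BAFF keep plasma cells alive. It had 0.592, 1.27 and 0.709 FPKM in knockout libraries, against 1.79, 2.20 and 0.816 FPKM in WT libraries. WT replicate 3 lay below knockout replicate 2, so the groups overlapped. These levels rest on 8, 18 and 10 reads in knockout libraries, against 30, 35 and 12 reads in WT libraries. The mean was 0.856 ± 0.361 FPKM in knockout and 1.60 ± 0.711 FPKM in WT bone (SD, n = 3 each). The log2 change was -0.46 (SE 0.25, 95% interval -1.06 to 0.13, limma adjusted p = 0.368), an interval that holds both a fall and a small rise. The ratio of the means was 0.535, and voom on reads gave a log2 change of -0.85.

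The genes of the survival niche did not move together. Of 20 listed, 17 were tested and 0 were called in either direction (median log2 change 0.09); limma's unadjusted p was under 0.05 for 1 lower and 1 higher, and voom called 0. The 2 ligands of Tnfrsf17 were those with an unadjusted p under 0.05, and they are named after their values were seen. Tnfsf13 (APRIL) had 2.62, 1.96 and 1.91 FPKM in knockout libraries, against 1.04, 1.60 and 0.982 FPKM in WT libraries (log2 change 0.52, limma adjusted p = 0.128). Tnfsf13b (BAFF) had 1.07, 0.794 and 1.63 FPKM in knockout libraries, against 1.90, 2.64 and 2.68 FPKM in WT libraries (log2 change -0.66, limma adjusted p = 0.0953). The knockout libraries were above all WT libraries for APRIL and below them for BAFF. Cxcl12, the chemokine that holds plasma cells in marrow, had a log2 change of -0.32, the adhesion regulator Lgals1 one of -0.14 and the survival factor Mcl1 one of 0.22, none past the threshold.

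The members of the secretory machinery were not called. Jchain (ENSMUSG00000067149, chr5:88519809-88527891, minus strand) had 167, 227 and 140 FPKM in knockout libraries, against 196, 280 and 166 FPKM in WT libraries. In both groups replicate 2 was the highest and replicate 3 the lowest, and the groups overlapped. The mean was 178 ± 44.9 FPKM in knockout and 214 ± 59.1 FPKM in WT bone (SD, n = 3 each), from 23010 and 31431 reads. The log2 change was -0.26 (SE 0.26, 95% interval -0.88 to 0.36, limma adjusted p = 0.653), an interval that includes a fall and a rise.

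Mzb1 (ENSMUSG00000024353, chr18:35647267-35649367, minus strand), which is also made by some B cells and plasmacytoid dendritic cells, had 36.1, 37.4 and 21.2 FPKM in knockout libraries, against 43.0, 64.7 and 41.0 FPKM in WT libraries. The knockout libraries were all lower, with a narrow gap between knockout replicate 2 and WT replicate 3. The mean was 31.6 ± 9.0 FPKM in knockout and 49.6 ± 13.1 FPKM in WT bone (SD, n = 3 each). Its log2 change was -0.65 (SE 0.27, 95% interval -1.28 to -0.02, limma adjusted p = 0.232). The read number behind Mzb1 was not recovered, so its depth is unknown. Plasmacytoid dendritic cell markers had a summed level of 265 to 406 FPKM in knockout and 362 to 575 FPKM in WT libraries, with 0 of 10 tested called in limma or voom, 2 lower and 1 higher at an unadjusted p under 0.05, and none at 0. The part of those cells in the level of Mzb1 was not tested.

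Derl3 (ENSMUSG00000009092, chr10:75893413-75895941, plus strand) had 2.88, 3.83 and 2.17 FPKM in knockout libraries, against 2.68, 3.83 and 1.81 FPKM in WT libraries. The groups overlapped almost fully, and each knockout replicate sat at or just above the WT replicate of its rank. The mean was 2.96 ± 0.832 FPKM in knockout and 2.77 ± 1.02 FPKM in WT bone (SD, n = 3 each), from 303 and 324 reads. For Derl3 the log2 change was 0.08 (SE 0.24, 95% interval -0.48 to 0.65, limma adjusted p = 0.886).

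Within single libraries, the members were also set against Jchain, which describes their proportions without a test. Xbp1 was 39.2% to 59.7% of the Jchain FPKM in knockout libraries, against 22.7% to 34.2% in WT libraries, and Derl3 was 1.56% to 1.72% in knockout, against 1.09% to 1.37% in WT libraries. Sdc1 was 2.79% to 4.04% in knockout libraries, against 5.85% to 7.06% in WT libraries. Prdm1 was 0.408% to 0.557% in knockout libraries, against 0.758% to 1.07% in WT libraries. Mzb1 lay just apart as well, at 15.2% to 21.6% in knockout, against 21.9% to 24.8% in WT libraries. On this scale the groups did not overlap in 2 of 8 members higher (Xbp1 and Derl3) and 3 lower (Sdc1, Prdm1 and Mzb1), and they overlapped for Irf4, Pou2af1 and Tnfrsf17. Of the 13618 tested genes other than Jchain, divided in the same way, 11.3% did not overlap, 5.43% lower and 5.87% higher. The ratios share the Jchain value of their library.

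**Figure D4:**
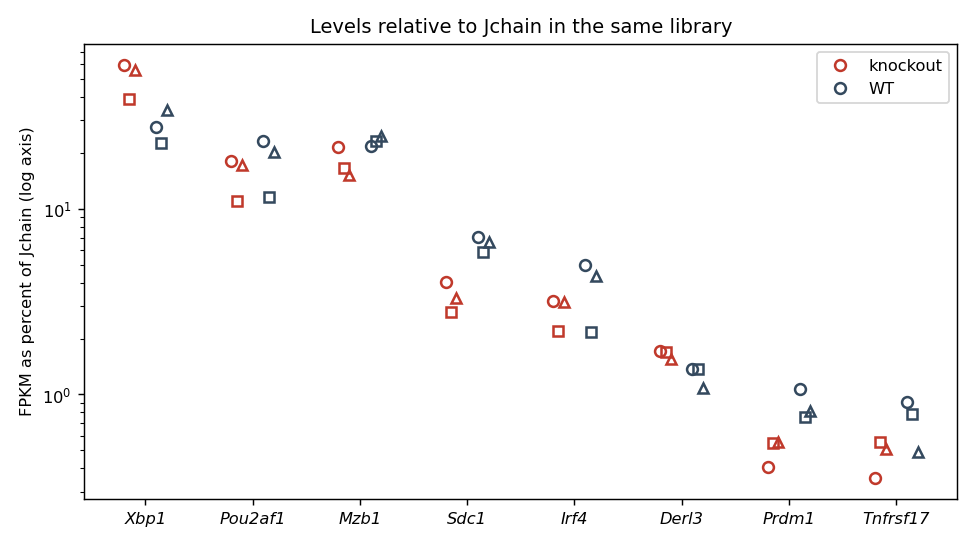
FPKM of 8 plasma cell genes as a percent of the Jchain FPKM in the same library, on a log axis, with knockout libraries left of WT libraries; circle, square and triangle are replicates 1, 2 and 3. Xbp1 lay at 39.2% to 59.7% in knockout and 22.7% to 34.2% in WT libraries, and Sdc1 at 2.79% to 4.04% in knockout and 5.85% to 7.06% in WT libraries.

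Promoters of 8 members, from 250 bases before to 50 after the start, were searched on both strands in RefSeq sequences (GRCm38.p6), with 32851 promoters in all. The ER stress element, which ATF6 and XBP1 bind and which reads CCAAT followed after 9 bases by CCACG, was found in 1 of 8 members, Derl3, and in 0.119% of all promoters. TGACGTGG, a form of the unfolded protein response element, was found in 1 of 8, Pou2af1, and in 0.676% of all promoters; it contains ACGT and, on the other strand, CCACG. The GC box GGGCGG was found in 4 of 8 members and in 35.7% of all promoters, with 3 copies on the given strand in Sdc1. These 3 promoters are shown because Derl3 and Pou2af1 hold the less common matches and Sdc1 is the member that fell; capitals mark the outer bases of the Derl3 element, which lies on the opposite strand, the Pou2af1 element and the Sdc1 GC boxes:
Derl3, chr10:75893148-75893447, plus strand: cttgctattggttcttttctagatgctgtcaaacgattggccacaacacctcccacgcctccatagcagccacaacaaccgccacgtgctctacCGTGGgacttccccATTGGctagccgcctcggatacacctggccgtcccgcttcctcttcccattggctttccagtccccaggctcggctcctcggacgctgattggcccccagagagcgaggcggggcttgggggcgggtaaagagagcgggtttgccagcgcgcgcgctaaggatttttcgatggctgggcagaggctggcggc
Pou2af1, chr9:51213440-51213739, plus strand: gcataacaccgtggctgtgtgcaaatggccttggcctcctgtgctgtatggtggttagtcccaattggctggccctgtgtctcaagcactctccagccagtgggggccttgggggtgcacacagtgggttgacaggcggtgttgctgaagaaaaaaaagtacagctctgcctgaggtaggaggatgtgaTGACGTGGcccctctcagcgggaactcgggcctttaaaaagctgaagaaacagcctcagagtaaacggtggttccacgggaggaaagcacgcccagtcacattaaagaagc
Sdc1, chr12:8771146-8771445, plus strand: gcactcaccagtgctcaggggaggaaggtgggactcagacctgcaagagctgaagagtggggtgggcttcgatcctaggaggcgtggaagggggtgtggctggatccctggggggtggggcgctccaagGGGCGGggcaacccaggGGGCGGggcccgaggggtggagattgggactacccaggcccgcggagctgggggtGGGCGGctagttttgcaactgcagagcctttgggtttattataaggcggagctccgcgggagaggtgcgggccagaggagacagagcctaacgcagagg
The Derl3 element lies 156 to 138 bases and the Pou2af1 element 61 to 54 bases before the start. Derl3 and Pou2af1, which hold these letters, had log2 changes of 0.08 and -0.46, and Xbp1 itself held ACGT (30.9% of all promoters) 31 to 28 bases before its start. The octamer ATGCAAAT (1.74% of all promoters) and the composite element that PU.1 and IRF4 share, GGAA, 2 bases of any kind and GAAA (2.72%), were in 0 of 8 member promoters, which says only that these letters are not in this window. TATAAA was in 2 of 8 members and 13.6% of all promoters, CCAAT in 4 of 8 and 37.4%, CCACG in 5 of 8 and 32.8%, and ACGT in 4 of 8.

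A further list of 25 genes that plasma cells are known to express moved in both directions. Of its 22 tested genes, 0 were called (median log2 change 0.05); limma's unadjusted p was under 0.05 for 3 lower and 4 higher, and voom called 0 of 19. The groups stood apart in 3 lower and 3 higher of the 22, close to the 13.7% lower and 14.7% higher of all tested genes. Slamf7, an adhesion receptor of plasma cells named after its values were seen, had 1.75, 2.94 and 1.97 FPKM in knockout libraries, against 6.66, 3.64 and 4.33 FPKM in WT libraries, every knockout library being lower (log2 change -0.85, limma adjusted p = 0.0811). Creld2, an ER chaperone that also sits in the ER list and was named after its values were seen, had 63.9, 48.3 and 47.0 FPKM in knockout libraries, against 20.3, 38.4 and 22.9 FPKM in WT libraries, every knockout library being higher (log2 change 0.98, limma adjusted p = 0.0760). The 3 genes of highest level were Ly6c2 (log2 change 0.59), Tent5c (0.14) and the B cell receptor subunit Cd79b (-0.19), none past the threshold.

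The products and the precursors of plasma cells stood as follows. Over all tested genes, 1.34% rose and 3.82% fell in limma. Of the immunoglobulin constant region genes, 2 of 11 tested rose and 0 fell in limma. At an unadjusted p under 0.05, 4 were higher and 2 lower, and voom on reads called 2 higher and 1 lower. Igha had 414, 237 and 286 FPKM in knockout libraries, against 106, 69.9 and 51.0 FPKM in WT libraries (log2 change 2.06, limma adjusted p = 0.0211), and Ighg2c also rose (log2 change 1.42, limma adjusted p = 0.00847). Ighm had 427, 1150 and 311 FPKM in knockout libraries, against 1220, 2050 and 1170 FPKM in WT libraries, every knockout library being lower, without passing (log2 change -1.42, limma adjusted p = 0.169). Ighg3, named after its values were seen, was also lower in every knockout library without passing (log2 change -2.11, limma adjusted p = 0.0666). The median of that list was -0.35, and its summed level was 2680 to 4770 FPKM in knockout and 3870 to 7710 FPKM in WT libraries. Markers of B cell precursors fell in 2 of 11 tested, the surrogate light chain genes Vpreb1 (log2 change -2.32, limma adjusted p = 0.0220) and Igll1 (log2 change -2.06, limma adjusted p = 0.0254). Without 1 library the number that fell was 0 (without knockout replicate 1 or WT replicate 1 or 2), 1 (knockout replicate 3) or 3 (WT replicate 3), and for the constant regions the number that rose was 1 without knockout replicate 1 or 2 or WT replicate 2. The median of the B cell precursor markers was -0.62, and their summed level was 128 to 231 FPKM in knockout and 206 to 276 FPKM in WT libraries. Of 17 tested B cell identity genes that plasma cells silence, Prdm1 targets among them, 0 were called in limma (median -0.12), with 2 lower and 2 higher at an unadjusted p under 0.05, and voom called 1 lower. Their highest members were Cd74 (-0.53), Cd79a (-0.12) and Cd79b (-0.19), none past the threshold. Cd79b was also listed above among genes that plasma cells are known to express, so the list labels conflict for this gene.

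**Figure D5:**
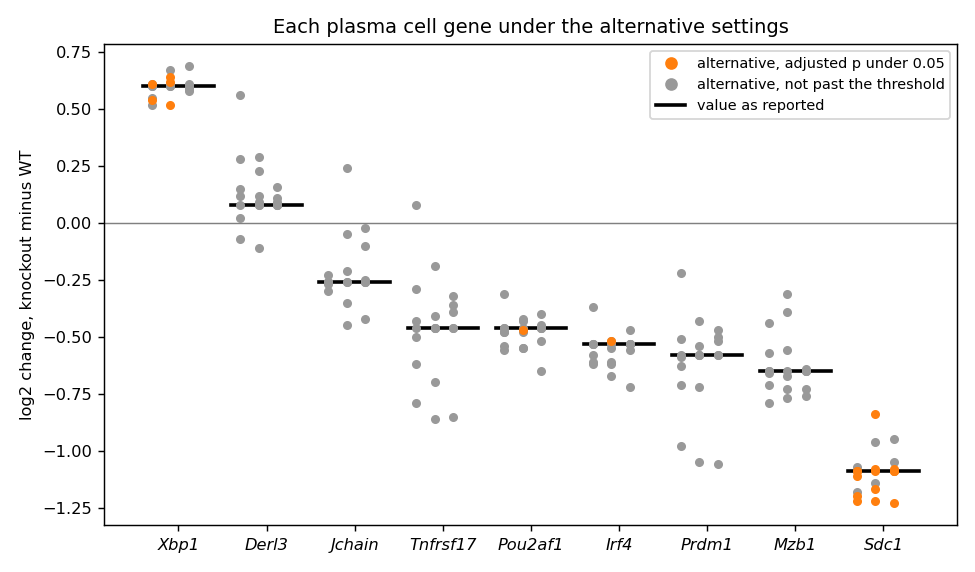
Change of each plasma cell gene as knockout minus WT in up to 21 alternative settings (points) and as reported (bar); points in orange had an adjusted p under 0.05. Sdc1 ranged from -1.23 to -0.84 and Xbp1 from 0.52 to 0.69, while Derl3, Jchain and Tnfrsf17 had points on both sides of 0.

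Across 21 alternative settings, Sdc1 stayed lower (log2 change -1.23 to -0.84) and was called in 14, and Xbp1 stayed higher (0.52 to 0.69) and was called in 5. Irf4 (-0.72 to -0.37) and Pou2af1 (-0.65 to -0.31) stayed lower and were called in 1 each, with library weights (adjusted p of 0.0117 for Irf4 and 0.0181 for Pou2af1). That setting called 1803 genes lower over all genes, against 520 as reported. Mzb1 (-0.79 to -0.31) and Prdm1 (-1.06 to -0.22) stayed lower in the 20 settings that tested them, without a call. Jchain (-0.45 to 0.24), Tnfrsf17 (-0.86 to 0.08) and Derl3 (-0.11 to 0.56) changed sign in at least 1 setting and were called in none.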

How the data were processed

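Bone RNA libraries (TruSeq, total RNA, per the labels' protocols) were grouped by their titles and genotype labels. The authors deposited 1 table of FPKM values per gene and library. According to the submitters' processing notes, reads were handled with Bowtie 0.12.2 on mm10; no source used here names the counting tool, annotation, strand setting or scaling. Gene identifiers numbering 54495 matched GENCODE M21, which gave symbols, coordinates and exon lengths.

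Values were tested as log2(FPKM + 1), a scale that understates changes of low genes, in R 4.3.3 with limma 3.58.1 (variance trend), for genes with a mean of at least 1 FPKM and with Benjamini-Hochberg adjustment over all 13619 genes (threshold 0.05). Every adjusted p printed is from limma. FPKM times exon length gave whole reads (within 0.01) for 96.9% of 29615 genes above 0, for 8 of the 9 members; these reads give depth, counting error only, and the voom alternative. No library repeated another: chi-square between replicates was 14.2 to 81.2 per degree of freedom.

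The members and gene lists were chosen with earlier results of these data known. Named genes were all members, list members past the threshold (6 of smallest p) plus the 3 of highest level, the host transcript, and the 3 profiles nearest to Jchain, Sdc1 and Xbp1; others are marked, and not every gene the rule allows is named. Some genes sit in 2 lists. The fit was tested on simulated data. Alternatives covered pseudocount, filter, scaling, variance model, library weights, block, reads, length trend and libraries left out. Figures used matplotlib 3.10.9.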

Additional observations from a re-analysis of the deposited data

How the results depend on the processing

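The count of plasma cell genes lower in the knockout, 1 as reported, was 0 with no filter on low values, 0 without WT replicate 2 and knockout replicate 1 together and 3 with library weights (limma's array weights), and 0 to 1 when 1 library was left out. The count higher, 0 as reported, was 1 with quantile normalization, abundant transcripts removed, array weights, voom on recovered reads or the length trend removed, each time Xbp1, and 0 when 1 library was left out. Array weights raised the calls over all genes as well, to 1803 lower and 1551 higher, against 520 and 183 as reported. With array weights the log2 changes of Jchain (0.24) and Tnfrsf17 (0.08) turned positive; that of Derl3 ranged from -0.11 to 0.28 when 1 library was left out, and was -0.07 without knockout replicate 2. The cause was not tested.

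Replicate numbers did not pair the libraries: same-numbered deviations from the group mean correlated at -0.493, -0.27 and 0.158 for numbers 1, 2 and 3, and not every library correlated best with its own number (knockout replicate 1 did so with WT replicate 2, at 0.545). With the replicate number as a block, 127 genes were called, 108 lower and 19 higher, against 703, while the counts of plasma cell genes stayed at 1 lower and 0 higher (Sdc1, adjusted p = 0.0495) and the ER genes that rose numbered 1. When 1 library was left out, 48 to 348 genes were lower and 14 to 79 higher over all genes; with no filter on low values 100 were lower and 43 higher. Neutrophil precursor markers that rose numbered 0 to 8 across the settings. Depth limits Tnfrsf17, which rests on 36 reads in knockout and 77 in WT libraries. Prdm1 rests on 259 reads in knockout and 607 in WT libraries, and Derl3 on 303 and 324.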

Other observations

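Of 12 mature B cell genes 0 were called in limma or voom (median log2 change 0.24), with 3 higher and 0 lower at an unadjusted p under 0.05 and a summed level of 185 to 265 FPKM in knockout and 184 to 214 FPKM in WT libraries. Of 7 tested dendritic cell genes Itgax, an integrin, fell (log2 change -0.51, limma adjusted p = 0.0468). The median of that list was -0.50. Its groups stood apart in 3 lower and 0 higher of 7, against 13.7% lower and 14.7% higher of all tested genes. Its summed level was 15.2 to 19.5 FPKM in knockout and 21.2 to 28.4 FPKM in WT libraries. Of 8 monocyte and macrophage genes the growth factor receptor Csf1r fell (log2 change -0.68, limma adjusted p = 0.0276), while the list had a median of 0.02. Its groups stood apart in 2 lower and 3 higher of 8, the same numbers as at an unadjusted p under 0.05. With voom on reads, 1 was called higher and 0 lower of 7. Csf1r, whose reads were not recovered, was not among those 7. The summed level of this list was 393 to 491 FPKM in knockout and 350 to 381 FPKM in WT libraries. The calls of Itgax and Csf1r were lost without any 1 library. Over all tested genes 3.82% fell and 1.34% rose. Of 8 tested T cell genes 0 were called in limma or voom (median -0.20), with 1 lower at an unadjusted p under 0.05, and of 6 erythroid genes 0 were called in limma or voom and 0 had an unadjusted p under 0.05 (median -0.01).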
